A study of Mus musculus with 4 samples.

Results

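Nkx2-1, Foxa1 and Foxa2 encode transcription factors of the endoderm that forms the lung, and Nkx2-9 encodes a relative of NKX2-1. They were followed as 4 named genes among 21887 protein-coding genes, with every peak of open chromatin from 300 kb before to 300 kb after each gene, whatever other genes lay between. The data came from ATAC-seq, in which the Tn5 transposase cuts accessible DNA and inserts sequencing adapters. There was 1 group of 4 libraries, made from whole lungs of wild-type (wt) mouse embryos at E15.5 with 60000 nuclei tagmented each, and no other genotype, treatment or time. The series concerns the HOXA5-driven programme of lung development, and its stated purpose here was to find the open regions. Whole lung mixes epithelium with mesenchyme, vessels and blood, so a lower peak may reflect fewer epithelial cells or less open DNA per cell, and these cannot be told apart. The labels named neither sex nor strain, and did not say whether libraries came from separate embryos, so SDs cover only the spread between libraries, which may be technical.

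NKX2-1 is a homeodomain protein that first marks the respiratory part of the foregut and is required for lung and thyroid. NKX2-9 is a relative encoded by the next coding gene, known in mouse from the ventral neural tube. FOXA1 and FOXA2 are forkhead proteins, called pioneer factors because they bind DNA wrapped in nucleosomes, and together they are needed for branching of the airway epithelium. NKX2-1 and the FOXA proteins act together on genes of surfactant and airway secretory cells.

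Replicates 1 to 4 held 134503, 186199, 211678 and 192842 peaks on assembled chromosomes, and 116, 162, 156 and 144 of these lay near the members. Overlapping peaks were merged across libraries into 307572 regions, of which 229 were near the members. Replicate 1 stood apart, with the fewest peaks and a median fold enrichment of 8.99 against 3.73 to 3.90 in the others. Its peak names carried the French word for fresh and the other 3 lists the word frozen, while the labels described snap-freezing for all. Fold enrichment is the authors' ratio of signal at the peak summit to local background. It was therefore used as a percentile, the rank of a peak among all peaks of its own library, with 100 the strongest. Of the listed cell type markers, all 5 of epithelium and all 5 of mesenchyme had a gene-start peak in every library, as did 4 of 5 of endothelium and 2 of 5 of blood. By the same rule 66.9% of all 21887 coding genes did, and lists of 5 are too short to be judged against that share. The 2 of blood were Spi1 and Klf1, at mean percentiles of 90.8 and 96.5. Ptprc, which marks white blood cells, had no peak in any library.

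Nkx2-1, Foxa1 and Foxa2 had a peak within 1 kb of an annotated transcription start in every library, and Nkx2-9 had one in 3 libraries. Across 17492 coding genes with an annotated start, 66.6% had such a peak in every library. Without replicate 1, all 4 members had one, against 69.3% of genes. The letters upstream of each start are shown because the position of the summit relative to them differed between the genes. Each run is the 250 bases before an annotated start, from RefSeq on GRCm38.p6 (the assembly of mm10), minus strand, 5′ to 3′. Capitals mark matches on either strand to the NKX2 core CAAGTG, the forkhead core TGTTTAC, another forkhead core with the letters TGTTTGC, the homeodomain core TAATTA, the GC box GGGCGG and the TATA box TATAAA.
Nkx2-1, chr12:56536909-56537158: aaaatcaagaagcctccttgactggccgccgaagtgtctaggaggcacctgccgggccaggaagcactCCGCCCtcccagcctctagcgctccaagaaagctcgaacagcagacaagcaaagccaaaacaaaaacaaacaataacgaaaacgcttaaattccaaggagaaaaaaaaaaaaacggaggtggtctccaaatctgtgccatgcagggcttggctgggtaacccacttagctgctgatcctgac
Nkx2-9, chr12:56613285-56613534: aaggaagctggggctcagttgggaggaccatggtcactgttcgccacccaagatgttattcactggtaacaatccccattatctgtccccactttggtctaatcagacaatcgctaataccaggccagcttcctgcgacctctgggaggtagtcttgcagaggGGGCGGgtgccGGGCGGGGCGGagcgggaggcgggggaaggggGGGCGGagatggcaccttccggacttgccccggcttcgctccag
Foxa1, chr12:57546112-57546361: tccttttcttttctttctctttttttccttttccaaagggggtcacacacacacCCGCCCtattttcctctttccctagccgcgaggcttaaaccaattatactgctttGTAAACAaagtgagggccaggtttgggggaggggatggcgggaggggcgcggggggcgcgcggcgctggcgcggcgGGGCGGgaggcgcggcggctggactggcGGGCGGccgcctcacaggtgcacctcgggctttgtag
Foxa2 first start, chr2:148046970-148047219: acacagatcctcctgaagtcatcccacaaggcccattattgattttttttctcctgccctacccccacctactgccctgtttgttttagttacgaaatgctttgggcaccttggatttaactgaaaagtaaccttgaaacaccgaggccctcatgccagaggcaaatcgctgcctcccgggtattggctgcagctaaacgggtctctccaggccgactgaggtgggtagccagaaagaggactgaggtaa
Foxa2 second start, chr2:148045949-148046198: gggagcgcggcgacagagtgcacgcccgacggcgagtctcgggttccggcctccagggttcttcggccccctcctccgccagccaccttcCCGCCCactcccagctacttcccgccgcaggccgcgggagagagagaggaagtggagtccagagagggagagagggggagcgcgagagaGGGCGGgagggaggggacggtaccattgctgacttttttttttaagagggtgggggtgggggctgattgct

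GC boxes were found before every start shown except the first of Foxa2, and in 32.7% of all 32851 promoters of this length. In Nkx2-9 there were 4 matches within 87 bases of the start, and the middle pair shared a base. A forkhead core was found before Foxa1 alone among the members, 141 to 135 bases upstream, and the same 7 letters were in 3.17% of promoters. The NKX2 core (11.6% of promoters), TGTTTGC (4.30%) and the homeodomain core (4.84%) were in none of the 6 windows before members' starts. TATAAA was found before the third Foxa2 start, which is not printed, and in 12.4% of promoters. The second Foxa2 window was the richest in G and C, at 67.2%, above 86.5% of promoters, while the first held 50.8% and the Nkx2-1 window 50.8%. A match is a run of letters and says nothing of binding.

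**Figure D1:**
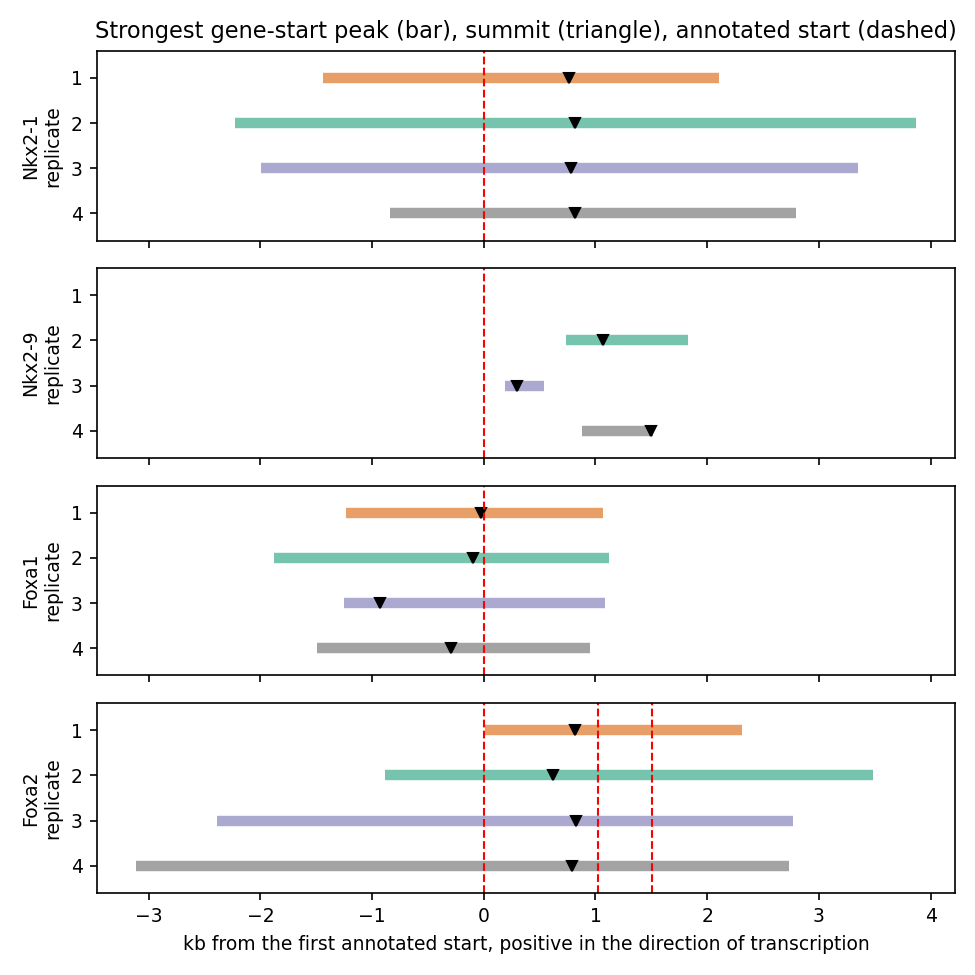
Extent of the strongest gene-start peak in each library (bars, replicates 1 to 4 from top), its summit (triangles) and the annotated starts (dashed lines), in kb from the first annotated start and positive in the direction of transcription. Summits of Nkx2-1 lay 764 to 815 bp inside the gene, those of Foxa2 624 to 828 bp past its first start, and replicate 1 had no Nkx2-9 peak within 1 kb.

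Nkx2-1 (chromosome 12, 56531935 to 56536908, mm10, minus strand) is the lineage factor of lung epithelium. Its gene-start peak had a fold of 21.5, 14.9, 13.4 and 15.6 in replicates 1 to 4, at the 77.1st, 91.9th, 92.9th and 93.5th percentile. Replicate 1 had the highest fold and the lowest percentile, and the median fold of its list was also the highest. The summits lay 764, 814, 782 and 815 bp downstream of the annotated start, within 51 bp of each other and outside the 250 bases printed for Nkx2-1. The peaks covered that whole upstream window in all 4 libraries. Peak widths were 3550, 6097, 5342 and 3640 bp, each wider than at least 97.1% of the peaks of its library. The merged region, 6097 bp wide, also held the start of Gm26973, a long non-coding RNA on the opposite strand that begins 282 bp upstream of Nkx2-1.

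Nkx2-9 (chromosome 12, 56611389 to 56613569, minus strand) had weak peaks. Its strongest peak within 1 kb of the start reached the 56.0th, 72.3rd and 66.7th percentile in replicates 2, 3 and 4. These libraries each had a peak with its summit 143, 299 and 377 bp downstream of the start and another at 1066, 1367 and 1498 bp, and which of the pair ranked higher differed: the nearer one in replicate 3, the farther one in replicates 2 and 4. Replicate 4 also had a peak with its summit 766 bp upstream of the start, at the 54.7th percentile. Only 2 libraries had a peak over the start itself, at the 49.3rd percentile in replicate 2 and the 54.7th in replicate 4. In replicate 1 only the farther peak was present, with its summit at 1329 bp; it was 167 bp wide, its nearest edge was 1266 bp from the start, and it ranked at the 3.68th percentile.

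Foxa1 (chromosome 12, 57540628 to 57548029, minus strand) had start peaks with folds of 14.8, 14.9, 10.9 and 11.8, at the 67.9th, 91.9th, 90.9th and 91.1st percentile. The summits lay 29, 94, 932 and 291 bp upstream of the start, the widest scatter among the members with a peak in every library. The only start annotated, at 57546111, lies inside the gene, so every summit was still within the annotated Foxa1 gene. Those of replicates 1 and 2 fell inside the printed Foxa1 window, downstream of its forkhead core. The merged region of 5429 bp also holds the annotated 5′ boundary of Ttc6, a coding gene that overlaps Foxa1 on the opposite strand, 593 bp from the Foxa1 start. Signal there cannot be assigned to either gene.

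Foxa2 (chromosome 2, 148042877 to 148046969, minus strand) had the highest start percentiles of the 4 genes. Folds were 45.6, 27.1, 22.3 and 25.8, at the 88.9th, 96.1st, 96.2nd and 96.6th percentile. The summits lay 814, 624, 828 and 791 bp past the first of 3 annotated starts, and 207, 397, 193 and 230 bp upstream of the second. Those of replicates 1, 3 and 4 fell inside the printed window of the second start. In replicate 1 the peak ended 9 bp short of the first start, while in the others it reached 881, 2393 and 3113 bp beyond it.

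**Figure D2:**
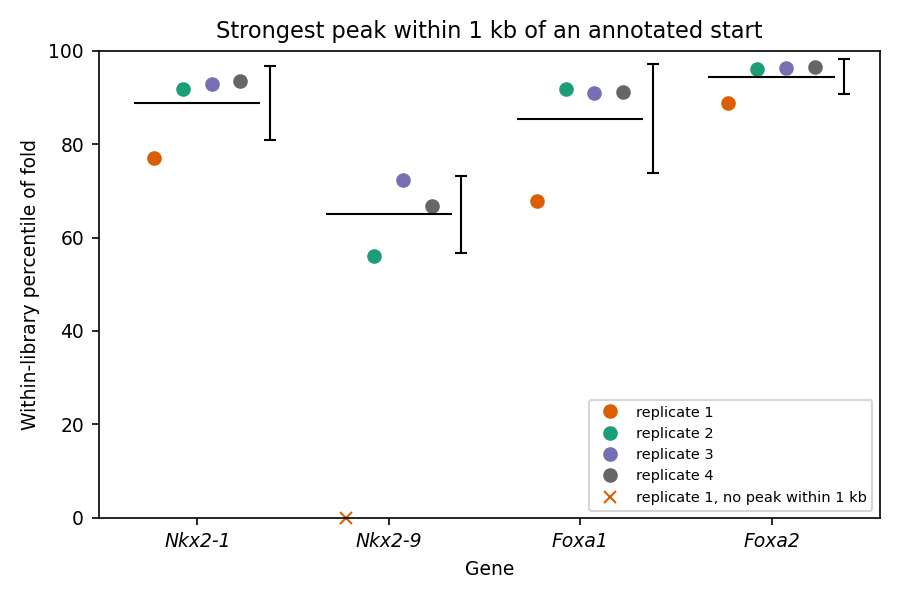
Within-library percentile of fold of the strongest peak within 1 kb of an annotated start, for each gene (points, replicates 1 to 4 from left; cross at 0, no peak), with the mean (line) and SD over the libraries with a peak (bar). Replicate 1 was the lowest library at Nkx2-1, Foxa1 and Foxa2, and the other 3 libraries lay within 2 percentile points of each other there.

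By mean percentile the order was Foxa2 at 94.4 ± 3.70, Nkx2-1 at 88.8 ± 7.87 and Foxa1 at 85.4 ± 11.7 (SD, n = 4), with Nkx2-9 at 65.0 ± 8.27 (SD, n = 3). Foxa2 was above Nkx2-1 and above Foxa1 in 4 of 4 libraries, and Nkx2-1 above Foxa1 in 3 of 4. The Nkx2-1 minus Foxa2 difference was -5.63 points (exact two-sided sign-flip permutation p = 0.125, adjusted p = 0.25 over 6 pairs). Foxa1 minus Foxa2 was -9.01 points with the same p-values (exact permutation p = 0.125, adjusted p = 0.25). Nkx2-1 minus Foxa1 was 3.38 points (exact permutation p = 0.25, adjusted p = 0.25). Without replicate 1 these differences were -3.55, -5.0002 and 1.45 points, each in the same direction. The smallest p is 0.125 with 4 libraries, and 0.25 for the 3 pairs with Nkx2-9, so no pair could pass 0.05. Nkx2-9 was below each of the others in 3 of 3 libraries, with differences (Nkx2-9 minus the other) of -26.3 points to Foxa1 and -31.3 to Foxa2, and 27.7 points for Nkx2-1 minus Nkx2-9. With peaks of q of 1e-05 or less these were -59.1, -70.5 and 62.5 points.

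These percentiles were not high for an open gene start. Among 11641 starts open in every library, 48.0% had a lower mean than Foxa2, 25.03% than Nkx2-1 and 18.7% than Foxa1. Width ranked higher than fold. The merged start regions of Foxa2 (6819 bp), Nkx2-1 (6097 bp) and Foxa1 (5429 bp) were each 5 kb or wider, as were 22.4% of those starts, and the median was 3083 bp. The Foxa1 start peaks of single libraries were narrower, 2306 to 3001 bp, and its merged region joined further peaks. Each was still wider than at least 93.4% of the peaks of its library. The genes whose 4 percentiles were closest to those of Nkx2-1 were Mrpl35, Als2cl and Efr3a, each within 0.801 points in every library. For Foxa1 they were Gm3558, Zfp819 and Ddn (within 1.73 points), and for Foxa2 Phyhipl, Kif18a and Mettl15 (within 0.316 points), out of 14637 other genes with a peak in every library.

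The genes also differed in what surrounded them. Within 300 kb, Nkx2-1 had 90 merged regions and 26 with a peak of every library, Foxa2 92 and 21, and Foxa1 46 and 9. Nkx2-9 had 72 and 18, and 71 of its regions were also in the Nkx2-1 window, including all 18, so its window adds little of its own. Regions with a peak of every library made up 28.9% for Nkx2-1, 25.0% for Nkx2-9, 19.6% for Foxa1 and 22.8% for Foxa2, against 21.5% of all regions. The number per 100 kb was 4.30 for Nkx2-1, 3.48 for Foxa2, 2.99 for Nkx2-9 and 1.48 for Foxa1, and the median of all coding genes was 3.997. Within 100 kb the order turned, with 6.86 for Foxa2, 5.94 for Nkx2-9, 5.37 for Nkx2-1 and 2.89 for Foxa1. Few coding genes lay in these windows. Foxa2 had none beside itself, and among the 336 genes as isolated the median was 0.333 per 100 kb, with 96.4% of them below Foxa2. For Nkx2-1, with 4 other coding genes, 84.2% of genes with no more neighbours had a lower density, and for Foxa1, with 3, 52.7%.

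**Figure D3:**
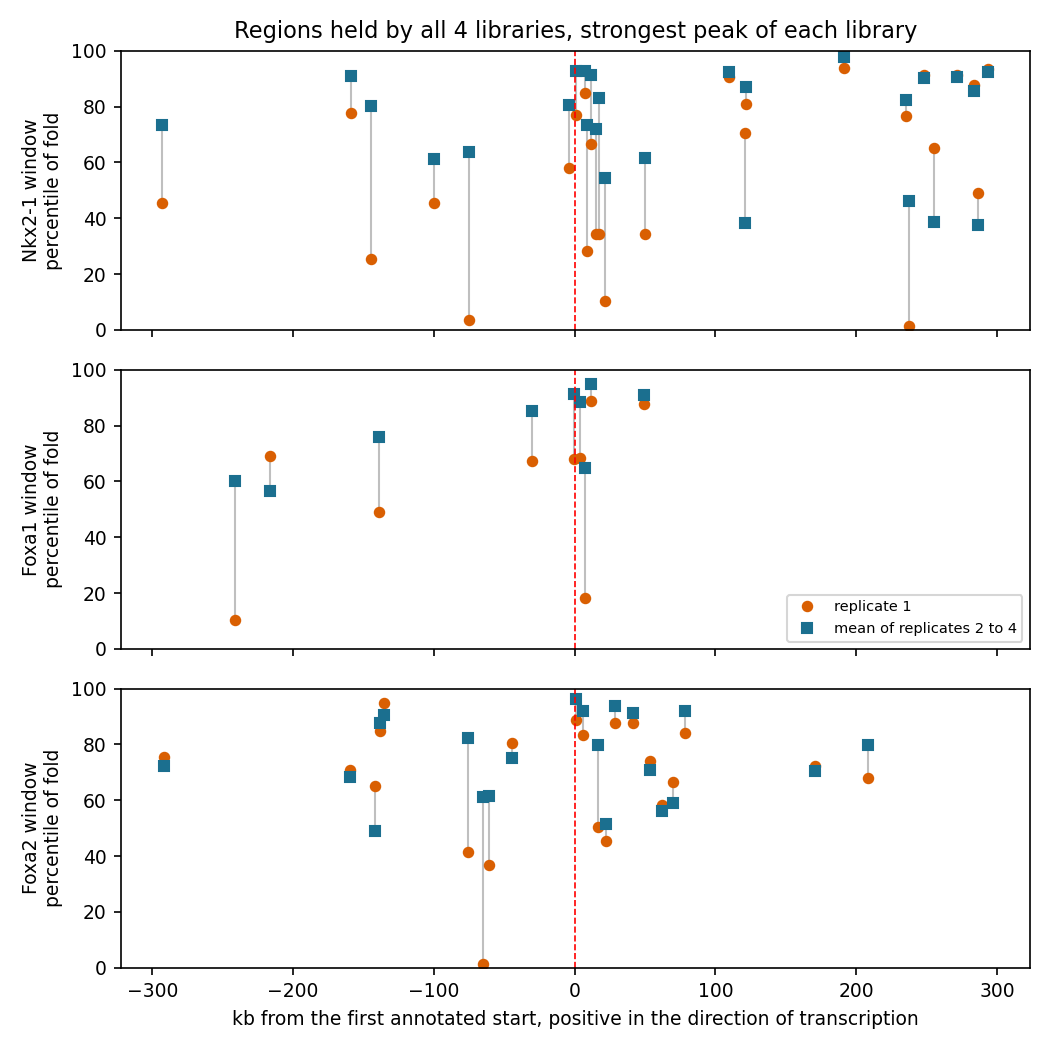
Regions with a peak of every library within 300 kb of Nkx2-1, Foxa1 and Foxa2, by distance of the summit from the first annotated start in kb (positive in the direction of transcription) and percentile of the strongest peak, for replicate 1 (circles) and the mean of replicates 2 to 4 (squares). Foxa1 had none between 49.5 kb past its start and the end of the window, and near Nkx2-1 the circles lay below the squares.

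Peaks covered 4.43%, 8.14%, 6.66% and 8.17% of the Nkx2-1 window in replicates 1 to 4. Coverage was 4.56%, 6.503%, 6.94% and 5.89% around Foxa2, and 2.11%, 3.54%, 2.71% and 3.24% around Foxa1. Replicate 1 was the lowest at each, and every library covered less of the Foxa1 window than of either other. Over all assembled chromosomes the peaks of replicate 1 also covered the least, 78.6 Mb against 141 to 162 Mb. Within 100 kb the mean coverage was 12.3% for Foxa2, 8.47% for Nkx2-1 and 6.995% for Foxa1, so Foxa2 was then above Nkx2-1. The Nkx2-1 window had 45, 69, 67 and 68 peaks, Foxa2 49, 63, 64 and 47, and Foxa1 21, 29, 25 and 29.

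Around Nkx2-1 the open regions lay mostly past its 3′ end. Of the 26, 20 had their summit downstream of the start and 6 upstream. The strongest belonged to the start of Mbip, a coding neighbour 186 kb past the gene, at the 96.8th ± 1.93 percentile (SD, n = 4). The 3 strongest distal regions, over 2 kb from any coding gene's end, were chr12:56241598-56243287, chr12:56425453-56427478 and chr12:56264597-56265717. They lay 289, 105 and 267 kb past Nkx2-1 and ranked at 92.6 ± 2.39, 92.0 ± 1.19 and 90.7 ± 1.28. The first and second overlapped no annotated gene, and the third overlapped Gm19990 and Gm46351. Percentiles of the second were 90.6, 91.9, 91.9 and 93.5 in replicates 1 to 4.

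On the 3′ side, closest to Nkx2-1, was a run of regions in Sfta3-ps, a long non-coding RNA gene of 39.0 kb that ends 2515 bp from it. It held 6 regions with a peak of every library. The one at chr12:56528686-56530518, 2.39 kb from the 3′ end of Nkx2-1, ranked at the 84.8th, 93.4th, 93.0th and 91.6th percentile, with summits within 58 bp. In the region chr12:56522925-56526814 the 4 summits fell within 16 bp, at the 66.6th, 91.8th, 91.2nd and 90.8th percentile. Across all 66190 regions with a peak of every library the median spread of summits was 143 bp, and across the 56 near the members it was 158.5 bp. On the other side, Gm26973 held 3 such regions over 90.6 kb, among them the Nkx2-1 start and the peak inside Nkx2-9. The strongest upstream region, at 87.5 ± 6.81, held an annotated start of Pax9, a paired-box factor of the pharyngeal pouches.

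Around Foxa1, 4 of its 9 regions lay within 20 kb of the start. The strongest region of the window was not the start but chr12:57534145-57537476, 5.73 kb past the 3′ end and overlapping no annotated gene. Its folds were 44.7, 22.1, 16.7 and 20.2, at the 88.7th, 94.9th, 94.5th and 95.2nd percentile, and in every library it ranked above the Foxa1 start. The next, chr12:57495903-57497023, was 44.1 kb past the gene at 90.2 ± 2.07, and chr12:57575629-57576743, inside Ttc6, at 80.8 ± 9.17. This last region holds a start of the non-coding gene Gm30518. Beyond 44.1 kb on the 3′ side, the next region with a peak of every library was outside the window, at 310 kb, with a mean percentile of 96.6.

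Around Foxa2, its own start region was the strongest of 21. There were 9 of the others in 9030622O22Rik, a non-coding RNA gene of 96.1 kb known as Falcor, whose 5′ end is 2364 bp from the 3′ end of Foxa2. The region at its 5′ end, chr2:148037742-148042311, ranked at the 83.4th, 90.2nd, 92.7th and 93.3rd percentile. Deeper in this gene, chr2:148017697-148020394 was the strongest distal region, with folds of 41.8, 21.3, 15.6 and 14.6, a percentile of 92.4 ± 3.09 and summits within 26 bp. The region chr2:148004419-148006127, also in this gene, had rank 3 among the distal regions, at 90.5 ± 2.49. Upstream, chr2:148182237-148183865 had rank 2 among the distal regions, at 91.5 ± 5.31. It was 136 kb from Foxa2, overlapped the annotated gene Gm36597 and ranked at the 94.8th, 93.9th, 93.9th and 83.6th percentile. Replicate 1 was the highest library there and replicate 4 the lowest.

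In the Foxa2 window 4 of 21 regions, 6 of 26 for Nkx2-1 3 of 18 for Nkx2-9 and 2 of 9 for Foxa1 had a mean percentile of 90 or more, against 23.3% of all regions with a peak of every library.

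At the edges of the windows, the outermost such region inside was 289 kb past Nkx2-1 at a mean percentile of 92.6, and the first outside was at 387 kb, at 29.7. For Foxa2 the pair upstream was 291 kb at 72.9 and 326 kb at 95.4.

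Replicate 1 ranked the regions next to Nkx2-1 lower than the other libraries did. All 7 regions within 20 kb of the Nkx2-1 start, and all 3 from 20 to 100 kb, were lower in replicate 1 than in every other library, while 8 of 16 farther out were. Every region over 100 kb upstream was among these 8, so the lower ranks were not confined to regions near the start. In all regions with a peak of every library 61.3% were. The median difference, replicate 1 minus the mean of the others, was -24.7 percentile points within 20 kb of Nkx2-1 and -2.85 beyond 100 kb, against -5.92 for all regions. Within 20 kb of Foxa1 it was -21.6 over 4 regions, all lower in replicate 1, and beyond 100 kb -26.8 over 3 regions, of which 2 were lower, so the median around Foxa1 was no smaller far from the start. For Foxa2 it was -8.62 over 3 regions, all lower, and 2.45 over 7 regions beyond 100 kb, of which 1 was lower.

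**Figure D4:**
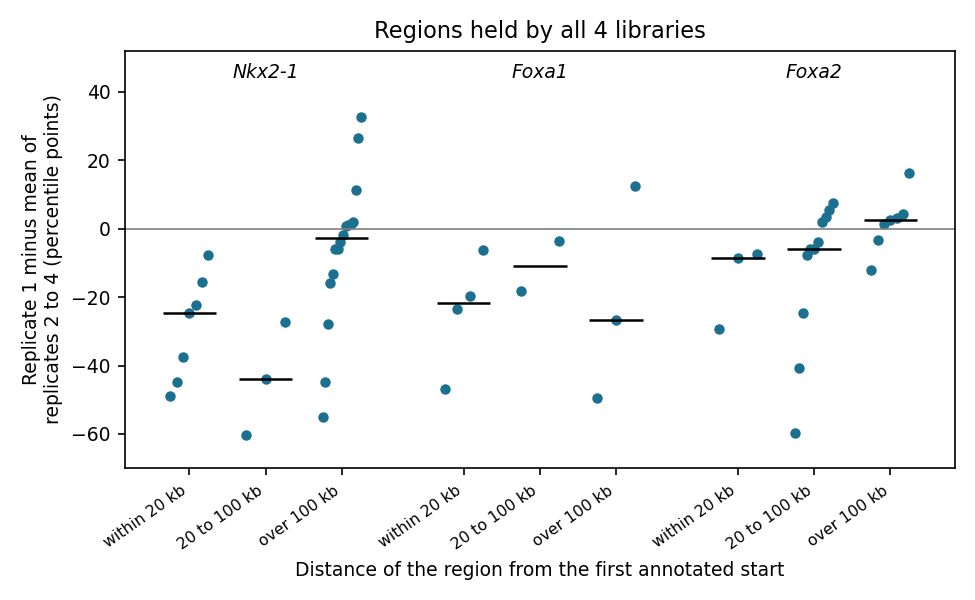
Difference in percentile, replicate 1 minus the mean of replicates 2 to 4, for each region with a peak of every library, by distance from the first annotated start of Nkx2-1, Foxa1 and Foxa2 (line, median). All points within 20 kb of the 3 starts were below 0, while those over 100 kb from Nkx2-1 ranged from -55.0 to 32.5.

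At the starts themselves the differences were -15.7 points for Nkx2-1, -23.4 for Foxa1 and -7.38 for Foxa2. Among all starts open in every library 90.2% were lower in replicate 1 than in every other, with a median difference of -3.75 points. A lower difference than that of Foxa1 was found in 8.78% of them, than that of Nkx2-1 in 14.6% and than that of Foxa2 in 31.4%. The mean of the other libraries was 91.3 for Foxa1, 92.7 for Nkx2-1 and 96.3 for Foxa2, and its median over all these starts was 95.9. Starts were not matched for this level. The epithelial markers (Epcam, Cdh1, Krt8, Krt18, Cldn6) were all lower in replicate 1, by a median of -14.6 points, and their percentiles summed to 361 in replicate 1 and 466 to 476 in the others. The mesenchymal markers (Tbx4, Foxf1, Tcf21, Pdgfra, Col1a1) differed by a median of -0.400 points, with 2 of 5 lower, and summed to 480 in replicate 1 and 476 to 482 in the others. Endothelial markers differed by a median of -13.0 points, and 4 of 4 open ones were lower. Blood markers differed by a median of -7.12 points, and 2 of 2 open ones were lower. These medians left out markers without a peak in every library. Of those, Tek (39.2) and Hbb-bt (18.1) were highest in replicate 1, and Gata1 (31.4) was between replicates 3 and 4. Sums over all listed markers add nothing for a marker without a peak. Endothelium came to 280 in replicate 1 and 285 to 324 in the others. Blood came to 226 in replicate 1 and 190, 234 and 221 in replicates 2 to 4, so replicate 1 was not the lowest in this sum. Replicate 2 had no peak at Tek, Gata1 or Hbb-bt, and replicate 3 none at Hbb-bt, so these sums rest partly on missing peaks. At Spi1 and Klf1, open in every library, replicate 1 was the lowest. Replicate 1 is 1 library with its own peak number and handling word, so these cannot be told apart, and their part in the ranks near the members was not tested.

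Other genes of the same network were counted by the same rule, using both gene ends where no start was annotated, and 66.9% of coding genes were open in every library under it. Among 6 relatives of the NKX2 and FOXA genes, 3 were open in every library, and 6 without replicate 1. Foxa3, a forkhead factor of liver and gut, was at 98.4 ± 1.12 (SD, n = 4), Nkx2-3 at 66.5 ± 18.7 and Nkx2-6 at 60.2 ± 28.1. Nkx2-2, Nkx2-4 and Nkx2-5, factors of neural tube, hypothalamus and heart, each had a peak in replicates 2 to 4 and none in replicate 1, the pattern of Nkx2-9.

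Other regulators of lung endoderm were open in every library at 22 of 24 genes. Etv5, a target of FGF signalling, was the highest at 99.8 ± 0.0066 (SD, n = 4), and Sox2, a factor of the proximal airway, stood at 82.3 ± 14.2. Trp63, the basal cell factor, had no peak in any library, and Ehf had one in 2. All 22 open genes were lower in replicate 1 than in every other library, as were 90.2% of annotated open starts. Of the relatives 2 of 3 were, and of the lung products below 6 of 9, with differences of up to 18.2 points the other way. Lung products known as NKX2-1 or FOXA targets were open at 9 of 12. Sftpc, encoding a surfactant protein, was the highest at 97.0 ± 0.99 through a peak at either gene end. Sftpd, Scgb3a2 and Lmo3 had none.

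Endoderm factors of other organs were open at 4 of 8 genes, and at 7 without replicate 1. Nkx6-1, a factor of pancreas and neural tube, was the highest at 96.3 ± 1.26, and Hnf4a, a factor of liver and gut, had a peak in 2 libraries. Genes of thyroid and forebrain, the other sites of Nkx2-1, were open at 5 of 8. Slc5a5, the iodide transporter of thyroid, was at 95.1 ± 5.49.

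**Figure D5:**
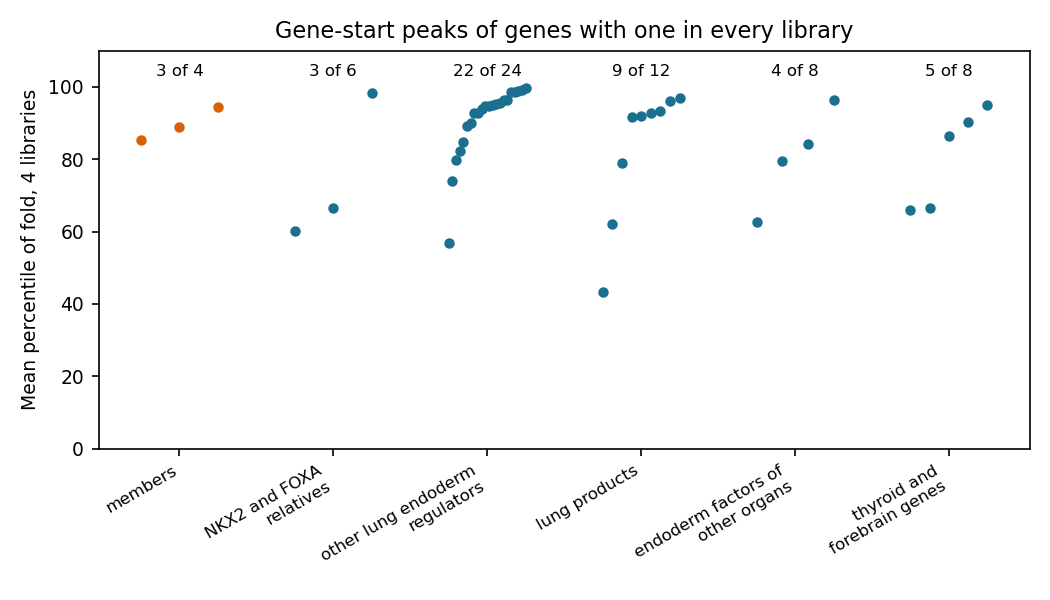
Mean within-library percentile of the gene-start peak over 4 libraries, for the members and the genes of 5 lists that had a peak in every library (points), with the number of such genes of the total above each. Foxa2, Nkx2-1 and Foxa1 (94.4, 88.8 and 85.4) lay within the range of the other lung endoderm regulators, 56.9 to 99.8.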

How the data were processed

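ATAC-seq was run on 4 wild-type lung libraries from E15.5 mouse embryos, forming 1 group with replicate numbers 1 to 4 from the labels. The authors deposited 1 peak list per library. In the deposited lists the fold enrichment is a ratio of summit signal to background, as the file format defines it. The authors also give −log10 values of p and of q and an integer score for each peak, and the deposited summit offset is another number, counted in bases from the peak start. Build mm10 and these tools are listed in the submitters' processing notes: MACS3 3.0.1, deepTools, SAMtools 1.18, FastQC 0.12.1, bedtools 2.31.0, Bowtie2 2.5.2 and Trim Galore. Their roles and parameters, duplicate removal, the Tn5 shift and removal of artefact-prone regions are not given in the sources used here. Read depth is unknown, so no counting interval is given.

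Only assembled chromosomes were used, which dropped 1245 to 1814 peaks per library on other contigs. Peaks that overlapped or touched were joined across libraries. Percentiles of fold were taken within each library, ties sharing their average rank, and the strongest peak of a library stood for it in a region. Starts came from RefSeq promoters and gene ends from the RefSeq gene table, both GRCm38.p6. Of 21887 coding genes 17492 had a start, as had all 4 members and 35 of the 58 list genes, and the rest used both gene ends. Distal meant over 2 kb from either end of any coding gene, so a region at an annotated start inside a gene could count as distal. Apart from the description of folds, libraries were compared by ranks. Pairs of members were compared by an exact sign-flip permutation over libraries with Benjamini-Hochberg adjustment. Dixon's test was used to look for libraries far from the others, and no groups were compared, since there is only 1. Genes were named by a rule: the members, in each list the highest percentile and those without a peak, the 3 genes most like each member, and the 3 strongest distal regions. Some other list genes (Nkx2-2, Nkx2-3, Nkx2-4, Nkx2-5, Nkx2-6, Ehf, Sox2, Hnf4a) and the other regions were named after their values were seen. An item that this rule names is not reported here. Members, lists and tests were chosen with earlier results of these data known. Scripts were tested on simulated peaks. Python 3.11.15, pandas 2.3.3, NumPy 2.4.6 and Matplotlib 3.10.9 were used.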

Additional observations from a re-analysis of the deposited data

Results flagged for a closer look

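In groups of 4 libraries, a library was looked at again when its gap to the nearest other was too large a part of the whole range by Dixon's test. Of 25 groups examined 8 did so, where chance gives about 1 in 20, and the groups share libraries. Replicate 1 was the library in 6 of them. Its gene-start percentile was 77.1 for Nkx2-1 (others 91.9 to 93.5), 67.9 for Foxa1 (others 90.9 to 91.9) and 88.9 for Foxa2 (others 96.1 to 96.6). Replicate 1 had 45 peaks within 300 kb of Nkx2-1, the others 67 to 69. Over all assembled chromosomes it also had the fewest, 134503 against 186199 to 211678. At the distal regions ranked 1 and 3 of Foxa1 it stood at 88.7 (others 94.5 to 95.2) and 67.2 (others 83.6 to 87.0). Replicate 3 was low, at 88.8, at the distal region ranked 3 of Nkx2-1 (others 91.2 to 91.6), and replicate 4, at 83.6, at the distal region ranked 2 of Foxa2 (others 93.9 to 94.8).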

How the results depend on the processing

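There were 14 alternatives, among them leaving out each replicate, and no single value changed sign, but the order of the genes by density and coverage turned at a reach of 100 kb. With peaks of q of 1e-05 or less, the mean gene-start percentile was 21.1 for Nkx2-9 and 90.6 for Foxa2, and that of the strongest distal region was 84.9 for Nkx2-1, 84.5 for Nkx2-9, 88.1 for Foxa1 and 86.1 for Foxa2. Peaks then covered 2.22% of the Foxa1 window and 4.63% of the Foxa2 window. With every list held to its 134503 strongest peaks, the Nkx2-9 start was at 49.3, and the strongest distal regions of Nkx2-1 and Nkx2-9 at 90.003 and 89.3; both settings remove weak peaks, which lowers the rank of those kept. A gene-start window of 2.5 kb gave 49.7 for Nkx2-9. Asking for at least 3 of 4 libraries gave 41 regions for Nkx2-1, 32 for Nkx2-9 and 36 for Foxa2. A stricter, reciprocal overlap of the peaks gave 15 for Nkx2-1 and 10 for Nkx2-9. A reach of 100 kb gave 5.37, 5.94, 2.89 and 6.86 regions per 100 kb for Nkx2-1, Nkx2-9, Foxa1 and Foxa2. Coverage was then 8.47%, 10.7%, 6.995% and 12.3% in the same order. The strongest distal regions were then at 85.1 for Nkx2-1 and 87.5 for Nkx2-9. The one for Nkx2-9 holds an annotated start of Pax9 and counted as distal only by its distance from gene ends. Taking both annotated ends of every gene, chosen after seeing the data, gave 5 open NKX2 and FOXA relatives. Leaving out one replicate gave 3 to 6 relatives, 4 to 7 endoderm factors of other organs and 19 to 29 Nkx2-9 regions; the highest values, 6, 7 and 29, were those without replicate 1. Of 124 values with a replicate left out, 121 moved by less than the spread between libraries (a difference between members: kept its direction) or by under 1.5 times for a count, although without replicate 1 the differences among Nkx2-1, Foxa1 and Foxa2 were smaller by over 1.5 times. No paired analysis was possible because there is 1 group, so replicate numbers pair no samples between groups. Read depth is unknown, so a missing peak does not show closed chromatin.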
